A study of Mus musculus with 63 samples.

Results

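The granins and the enzymes that mature neuropeptides were followed gene by gene in single neurons of the mouse primary visual cortex (V1). The set held 10 genes, Chga, Chgb, Scg2, Scg3, Scg5, Vgf, Pcsk1, Pcsk2, Cpe and Pam, taken by symbol from the 20183 genes of the deposited table. Chgb was picked because its level was far higher in light-sensitive (LS) than in non-light-sensitive (NS) cells. That ratio of Chgb is therefore a description of how it was chosen, and the other 9 genes stand beside it as members of the same pathway.

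Neurons store peptides in dense-core vesicles, which bud from the trans-Golgi network and release their cargo mainly during sustained activity. Granins are acidic proteins that aggregate in the trans-Golgi network and are packed into these vesicles, where several of them are themselves cut into peptides. Inside the vesicle, prohormone convertases cut precursors after pairs of basic residues, carboxypeptidase E trims the exposed basic residues, and peptidylglycine alpha-amidating monooxygenase amidates the C terminus. In the cortex, peptides such as somatostatin, neuropeptide Y, vasoactive intestinal peptide and cholecystokinin are best known from GABA neurons, while many pyramidal cells also make cholecystokinin.

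Somata were aspirated in vivo from layer 2/3 of V1 in wild type C57BL/6 mice with an age of 70 days, and each was turned into a Smart-seq2 library, a protocol that amplifies full-length cDNA of 1 cell by PCR. Beforehand, the calcium response to drifting gratings had placed each cell among the 46 LS or the 17 NS cells, and both groups came from adult males loaded with a calcium dye and kept under light isoflurane. No label tells which mouse or day a cell came from, so each group counts as 1 sample. The groups were compared without a test, and an SD describes the spread among cells. Values are FPKM, fragments per kilobase of exon, scaled to the total reads of the library, so levels can be compared between genes. After the filters of the study 35 LS and 12 NS cells were left, fewer than the study itself retained.

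The kept LS libraries held 358446 to 2495763 reads (median 860407) and the kept NS libraries 146437 to 875492 (median 310412). Of 7 general neuron markers, the median LS cell had reads of 7 and the median NS cell of 2, and their summed level ran from 2.89 to 1491 FPKM in LS (median 745) and from 0 to 1182 FPKM in NS cells (median 26). Odorant, vomeronasal and taste receptor genes, which cortical neurons do not use, reached at least 10% of the level of an even spread of reads over exons in 9 of 12 NS and 4 of 35 LS cells. The summed level of 7 astrocyte markers ran from 0 to 1249 FPKM in LS (median 101.3) and from 0 to 1816 FPKM in NS cells (median 138), with no marker at 0 in every cell of a group. The median number of genes above 1 FPKM was 5890 in LS and 3061.5 in NS cells. By the marker classes defined below, 30 of 35 LS but 2 of 12 NS cells were glutamate-marked, and 4 LS and 6 NS cells were GABA-marked. The LS to NS ratios thus compare groups of unlike class. All of these moved with the LS and NS groups, and their part in the differences between them was not tested.

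Promoter sequences are shown for the 3 members whose 300 bases around the RefSeq start hold the cyclic AMP response element TGACGTCA, the site known to bind CREB, an activity-regulated transcription factor. The element is its own reverse complement, was searched on both strands and stands in capitals below. The windows run from 250 bases before to 50 bases after the start, on GRCm38.p6, at chr2:132781392-132781691 (plus strand) for Chgb, at chr1:79439977-79440276 (minus strand) for Scg2 and at chr13:75089607-75089906 (plus strand) for Pcsk1.
Chgb: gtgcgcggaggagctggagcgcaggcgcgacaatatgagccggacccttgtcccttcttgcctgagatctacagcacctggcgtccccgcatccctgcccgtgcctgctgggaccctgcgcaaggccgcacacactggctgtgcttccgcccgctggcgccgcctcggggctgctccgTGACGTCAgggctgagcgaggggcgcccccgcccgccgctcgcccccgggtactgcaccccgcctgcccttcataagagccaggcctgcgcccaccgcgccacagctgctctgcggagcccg
Scg2: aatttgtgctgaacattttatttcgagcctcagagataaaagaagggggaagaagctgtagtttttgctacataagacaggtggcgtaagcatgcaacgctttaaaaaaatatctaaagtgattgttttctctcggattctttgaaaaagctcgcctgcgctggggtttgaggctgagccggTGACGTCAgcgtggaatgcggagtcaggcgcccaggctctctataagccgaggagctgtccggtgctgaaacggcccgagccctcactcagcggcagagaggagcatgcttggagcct
Pcsk1: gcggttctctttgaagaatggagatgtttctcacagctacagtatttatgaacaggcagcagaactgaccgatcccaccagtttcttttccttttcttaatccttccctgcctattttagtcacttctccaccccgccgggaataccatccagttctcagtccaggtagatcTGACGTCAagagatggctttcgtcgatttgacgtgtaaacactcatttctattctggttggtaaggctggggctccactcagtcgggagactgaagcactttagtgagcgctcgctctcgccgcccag
The first base of the element lay 72 bases before the start in Chgb, 68 in Scg2 and 78 in Pcsk1. RefSeq windows were matched for 8 members, and 3 of these 8 held the element, against 1.79% of all 32851 windows. The shorter site TGACG, which lies inside the full element, occurred on either strand in 7 of 8 members (Pam lacked it) and in 20.8% of all windows. The AP-1 site TGANTCA, bound by Fos and Jun proteins, was in 0 of 8 members and in 7.81% of all windows. These are matches of letters, and binding was not measured. Vgf and Cpe had no entry.

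Among the 30 glutamate-marked LS cells, Cpe was by far the most abundant member, at 606 ± 315 FPKM (SD, n = 30 cells), and it was the highest member in 29 of the 30 cells. Scg5 followed at 165 ± 176 FPKM, Chgb at 104 ± 113, Scg3 at 79.2 ± 79.7 and Pcsk2 at 50.55 ± 34.2 FPKM. Lower still were Scg2 at 37.4 ± 77.3, Chga at 30.5 ± 78.0, Vgf at 22.5 ± 27.2, Pam at 13.7 ± 11.2 and Pcsk1 at 1.24 ± 4.03 FPKM. Only the top and the bottom of this order held from cell to cell, with Cpe above Scg5 in 29 of 30 cells and Pam above Pcsk1 in 29 of 30. Between, neighbours changed places: Scg5 exceeded Chgb in 17 cells, Chgb exceeded Scg3 in 18, Scg3 exceeded Pcsk2 in 18, Scg2 exceeded Chga in 16 and Vgf exceeded Pam in 15 of 30. Chga exceeded Vgf in only 11 of 30 cells, against the order of their means. Pcsk2 exceeded Scg2 in 23 of the 30 cells, although their means differed by less than either SD. Over all LS cells, Cpe ranked 36 among all genes by mean FPKM, Scg5 256, Chgb 470 and Scg3 635.

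Most members were higher in LS than in NS cells. Mean FPKM was at least 2-fold higher in LS cells for 7 of 10 members (Chga, Chgb, Scg2, Scg5, Vgf, Pcsk2 and Pam), within 2-fold for Scg3 and Cpe, and at least 2-fold lower for Pcsk1. Of all 16760 genes with a mean of at least 1 FPKM in either group, 33.8% were at least 2-fold higher and 38.9% at least 2-fold lower. The share of higher genes was 38.6% without that minimum and 41.5% among genes with a mean of at least 50 FPKM, and since Chgb was chosen on this contrast nothing is read from the members' count. The members' median log2 ratio was 2.08, beside -0.20 over all of these genes and 1.89 over the 7 neuron markers. With the 31 LS and 3 NS cells whose receptor-gene level was under 10%, 6 members were at least 2-fold higher (2 of them, Chga and Pcsk1, with no NS read), while 68.6% of all genes were. The median over the 8 members with reads in both groups was 0.90. In these cells the log2 ratio of Scg2 was 0.23 and that of Pcsk2 0.17, both within 2-fold, and those of Scg3 (-0.33) and Cpe (-0.57) changed sign. Pcsk1 changed direction there too, and also among glutamate-marked cells, since its reads then lay in LS cells alone. With 3 NS cells of low receptor-gene level, 1 cell weighed heavily in each NS sum. NS_14 held 92.1% of the Scg3 sum and 55.7% of the Cpe sum. NS_16 held 100% for Scg2 and NS_13 78.4% for Pcsk2.

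**Figure D1:**
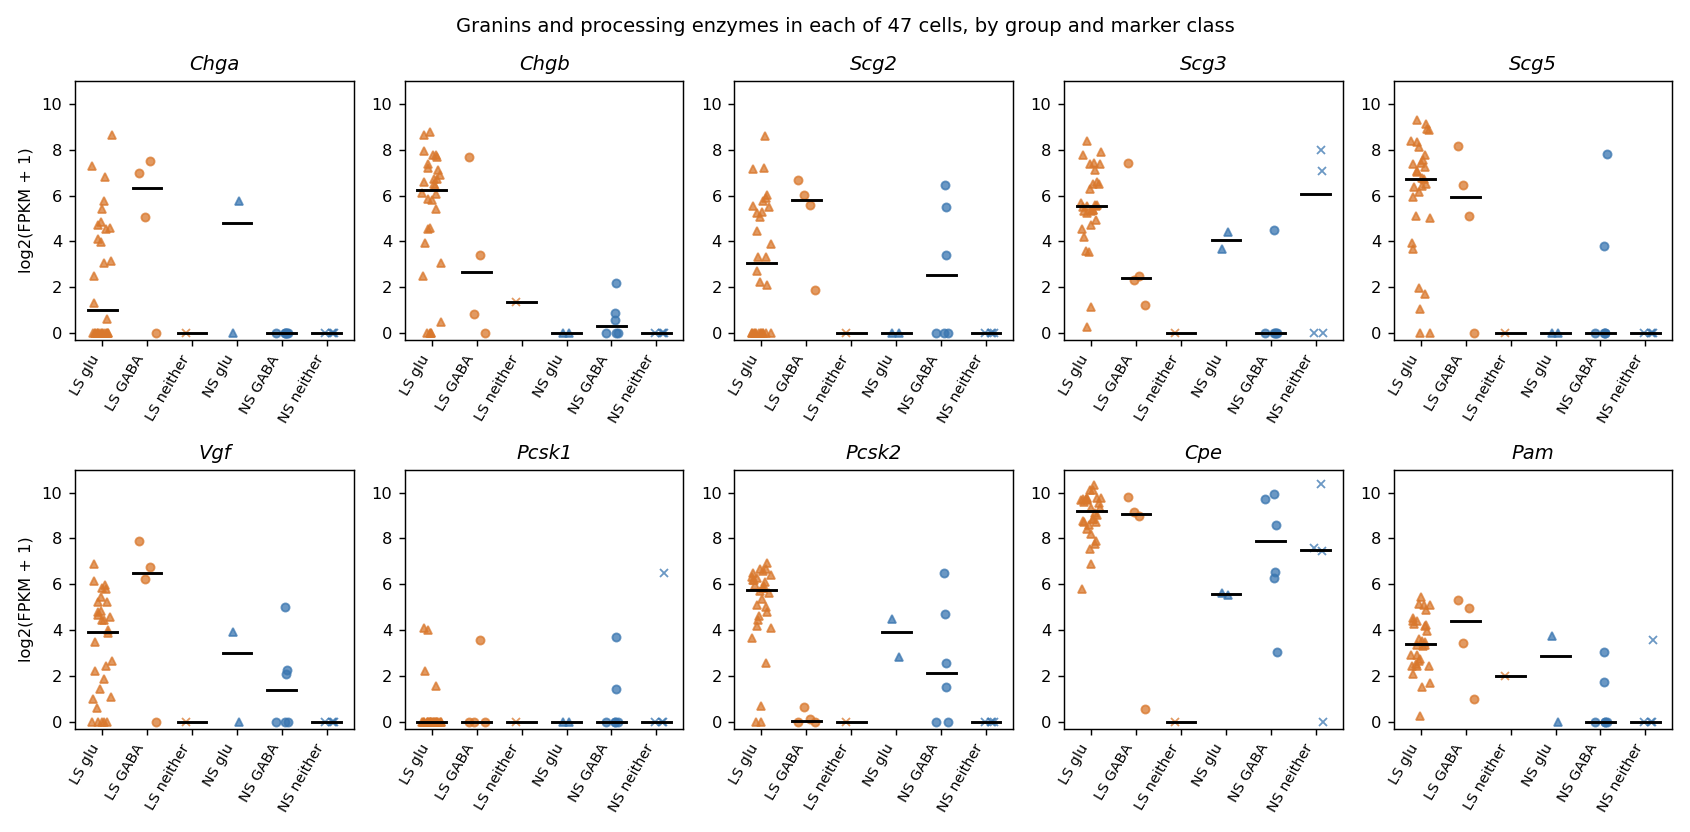
Level of each member in each of 47 cells, as log2(FPKM + 1), by group (LS orange, NS blue) and marker class (glu, glutamate-marked; GABA, GABA-marked; neither), where each point is 1 cell and each bar the median. Chgb lies at or under 3.57 FPKM in all 12 NS cells, and Pcsk2 is high in the glutamate-marked LS cells and at or under 0.557 FPKM in the 4 GABA-marked ones.

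More members were found per cell in the LS group as well. The median LS cell had reads of 8 of the 10 members (range 2 to 10), and the median NS cell of 3 (range 1 to 8). Over all genes, the median cell had 5890 above 1 FPKM in the LS and 3061.5 in the NS group. Of the general neuron markers, the median LS cell had reads of 7 and the median NS cell of 2. Chgb, chosen on this contrast, is among the members counted, so nothing is read from these counts. When every library was thinned to 200000 reads, for which 4 NS libraries were too small, 7.34 ± 2.01 members (SD, n = 35 cells) were expected per LS cell and 3.23 ± 2.19 per NS cell (n = 8 cells). Only total reads were matched in this way, not the number of detected genes, the neuron markers or the receptor-gene level.

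The chromogranins Chga and Chgb drive the condensation of vesicle cargo. Chgb (chr2:132781278-132795079, on GRCm38 by the GENCODE M21 annotation) ranged from 0 to 443 FPKM over LS cells, with a median of 67.1. In NS cells it was 0 in 9 of 12, and the others, NS_7, NS_13 and NS_16, had 3.57, 0.823 and 0.498 FPKM, together 4 reads. Of the LS cells, 27 of 35 lay above the highest kept NS cell, while the removed NS_17 had 139 FPKM. Since Chgb was chosen on this contrast, these values describe that choice. Mean FPKM was 95.7 ± 111 (SD, n = 35 cells) against 0.408 ± 1.03 (SD, n = 12 cells), a log2 ratio of 7.88, which became 9.64 without NS_7 and 3.23 when all 63 cells entered. Reads pooled over cells gave a log2 ratio of 8.62, with a counting interval of 7.26 to 10.5. Intervals cover counting error only, because PCR copies are not independent molecules. After thinning, 81.5% of LS and 10.8% of NS cells were expected to hold a read of Chgb.

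Chga (chr12:102554969-102565028) was rarer and more uneven. It ranged from 0 to 400 FPKM over LS cells with a median of 1.51, and 19 of 35 cells had a read. LS_34 alone held 32% of the LS sum. A single NS cell, NS_8, had 53.3 FPKM (33 reads) and the other 11 had 0, so the log2 ratio of the means, 3.01, rests on that cell, and none can be given without it. In glutamate-marked cells alone (30 LS and 2 NS) the log2 ratio was 0.20, where NS_8 again held every NS read. NS_8 owed this class to Neurod2, without a read of Slc17a7. It also had Gad1 at 6.36, Gad2 at 13.4 and Sst at 177 FPKM, and a receptor-gene level of 99.5%. The other NS cell, NS_9, had Slc17a7 at 1.36 and Neurod2 at 1.91 FPKM. The part of these marker levels in the ratio was not tested.

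The secretogranins Scg2, Scg3 and Scg5 and the granin-like precursor Vgf came next. Scg2 (chr1:79434669-79440120), the precursor of secretoneurin, ranged from 0 to 392 FPKM over LS cells (median 9.04), and over NS cells it was 87.4 in NS_16, 44.8 in NS_6, 9.73 in NS_7 and 0 in the other 9. The ranges overlapped, with 4 of 35 LS cells above NS_16, and the log2 ratio of the means was 1.69, or 2.94 without NS_16 and 0.23 in the cells of low receptor-gene level. Scg3 (chr9:75643189-75684056), which helps to anchor chromogranins to the vesicle membrane, was present in 34 of 35 LS cells at 0 to 330 FPKM (median 44.4). In NS cells it was 255 FPKM in NS_14, 133 in NS_2, 21.9 in NS_16, 20.3 in NS_8, 11.6 in NS_9 and 0 in the other 7. Only 1 LS cell exceeded NS_14, and the log2 ratio was 0.99, or 2.11 without NS_14 and -0.33 in the cells of low receptor-gene level. NS_14 also had reads of 6 of 7 astrocyte markers and the highest summed astrocyte level among the kept NS cells, 1816 FPKM. The part of this in its Scg3 was not tested.

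Scg5 (chr2:113776362-113829121) encodes 7B2, the chaperone that Pcsk2 needs to mature. It ranged from 0 to 639 FPKM over LS cells (median 91.3) and was read in 31 of 35. In NS cells it was 222 FPKM in NS_12, 13.1 in NS_16 and 0 in the other 10, and 8 LS cells lay above NS_12. The log2 ratio of 2.96 therefore hung on NS_12 and was 7.01 without it. Vgf (chr5:137026392-137033351), an activity-regulated gene whose product is cut into several neuropeptides, ranged from 0 to 240 FPKM over LS cells (median 14.9), with 28 of 35 cells read. In NS cells it was 30.8 FPKM in NS_16, 14.1 in NS_9, 3.79 in NS_6, 3.29 in NS_7 and 0 in the other 8. Vgf in 11 LS cells exceeded every NS cell, and the log2 ratio was 2.85, or 4.02 without NS_16.

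The convertases Pcsk1 and Pcsk2 had ratios of opposite sign between the groups. Pcsk1 (chr13:75089826-75134861) was scarce, with a read in 5 of 35 LS cells (0 to 16.3 FPKM) and in 3 of 12 NS cells, at 89.6 in NS_15, 12.1 in NS_7 and 1.74 FPKM in NS_6. Its means were 1.38 ± 4.11 and 8.62 ± 25.7 FPKM (SD, n = 35 and 12 cells), a log2 ratio of -2.64 that became 0.14 without NS_15. NS_15 had the highest receptor-gene level of the kept cells, 178% of an even spread, and this was not tested as a part of its Pcsk1. Pcsk2 (chr2:143546156-143816285) ranged from 0 to 119 FPKM over LS cells (median 39.5). In NS cells it was 90.4 FPKM in NS_13, 24.9 in NS_16, 21.7 in NS_9, 6.14 in NS_8, 4.98 in NS_6, 1.86 in NS_7 and 0 in the other 6. Here 4 LS cells lay above NS_13, and the log2 ratio was 1.79, or 3.0 without NS_13 and 0.17 in the cells of low receptor-gene level.

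Cpe and Pam finish the peptides. Cpe (chr8:64592542-64693054), carboxypeptidase E, was the one member found in nearly every cell of both groups, in 34 of 35 LS cells at 0 to 1277 FPKM (median 556) and in 11 of 12 NS cells at 0 to 1323 FPKM (median 133). No kept LS cell exceeded NS_14, and the log2 ratio of the means was 0.73, or 1.16 without NS_14 and -0.57 in the cells of low receptor-gene level. Cpe was also the highest member in 8 of 12 NS cells. NS_14 had the highest summed astrocyte level of the kept NS cells, 1816 FPKM. The 11 removed LS cells had a mean Cpe of 952 ± 643 FPKM, up to 2300 in LS_2, which had reads of 0 neuron markers. The part of astrocyte markers in these Cpe values was not tested. Pam (chr1:97795114-98095646), the amidating enzyme, had a read in 35 of 35 LS cells at 0.193 to 43 FPKM (median 10) and in 4 of 12 NS cells at 12.4, 10.8, 7.21 and 2.30 FPKM. In 14 LS cells it lay above the highest NS cell, and the log2 ratio was 2.37. After thinning, 98.4% of LS and 37.5% of NS cells were expected to hold a read of Pam.

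**Figure D2:**
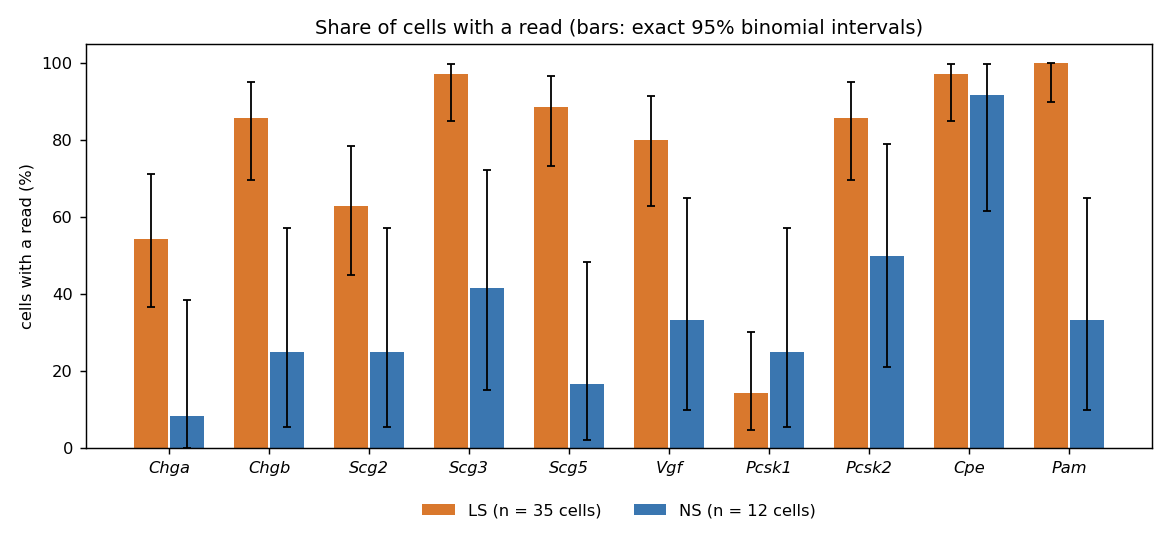
Share of cells with at least 1 read of each member, in percent, for 35 LS cells (orange) and 12 NS cells (blue), with exact 95% binomial intervals as error bars, which cover the counting of cells only and not the spread between mice. Chgb was read in 85.7% of LS (69.7 to 95.2) and 25% of NS cells (5.49 to 57.2), Cpe in 97.1% and 91.7%, and Pcsk1 in 14.3% and 25%.

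Marker class changed which members stood out. A cell was called glutamate-marked when Slc17a7 plus Neurod2 exceeded Gad1 plus Gad2 in FPKM, and GABA-marked in the opposite case, which gave 30 and 4 of the LS cells and 2 and 6 of the NS cells, with 1 LS and 4 NS cells in neither class. Within LS cells, Pcsk2 was the one member at least 2-fold higher in glutamate-marked cells, where 46.2% of 14454 genes were (54.8% without a minimum level), and Chga, Vgf and Pcsk1 were the members at least 2-fold lower, where 23.2% were. The median log2 ratio was -0.11 for the members and 0.72 over all of these genes. With 4 GABA-marked cells, 1 cell can decide a value.

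Pcsk2 differed most. The GABA-marked LS cells LS_9, LS_15, LS_14 and LS_39 had 0.557, 0.0768, 0 and 0 FPKM, together 3 reads, whereas the 30 glutamate-marked cells ran from 0 to 119 FPKM with a median of 53.1. Nearly all of the latter, 28 of 30, exceeded every GABA-marked LS cell. Of the GABA-marked cells, LS_39 had only 5.50 FPKM summed over the 10 members, and Gad1 at 9.25 with Gad2 at 0 FPKM. LS_9 had a receptor-gene level of 28.2%. The part of these in the Pcsk2 values was not tested. The means were 50.55 ± 34.2 and 0.158 ± 0.268 FPKM (SD, n = 30 and 4 cells), a log2 ratio of 8.32. It was 10.9 without LS_9 or in cells of low receptor-gene level, and 4.44 with the cells that the filters removed, among them LS_8, a GABA-marked cell with 12.1 FPKM. GABA-marked NS cells did not share this, since NS_13 had 90.4 and NS_16 24.9 FPKM of Pcsk2, NS_6 4.98, NS_7 1.86 and NS_11 and NS_12 0. In GABA-marked cells the LS to NS log2 ratio of Pcsk2 was thus -7.00 (n = 4 and 6 cells), opposite to that over all cells. Among the GABA-marked cells, some peptide precursors were read in a single group and others in both. Cck, Penk, Crh and Cort were read in LS cells alone. Tac2 was at 537 FPKM in LS_15 and 249 in NS_16, and Pnoc at 227 in LS_14 and 33.7 in NS_12. Vip was read in 3 of the 4 LS cells (LS_15 at 5266, LS_39 at 211 and LS_9 at 36.1 FPKM) and in 0 of the 6 NS cells. NS_16 held Sst at 9164 FPKM, and Npy was at 6336 in NS_12, 179 in NS_6 and 164 FPKM in NS_16. The LS cell LS_14 also had Npy, at 284 FPKM. The part of GABA subtype in the Pcsk2 ratio was not tested.

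Vgf and Chga leaned the other way. Vgf was 240 FPKM in LS_14, 108 in LS_15, 73.4 in LS_9 and 0 in LS_39, while the glutamate-marked LS cells ran from 0 to 117 FPKM with a median of 14.2. None of the 30 exceeded LS_14, and the log2 ratio was -2.22. Chga was 179 FPKM in LS_15, 125 in LS_14, 32.8 in LS_9 and 0 in LS_39, against a glutamate-marked range of 0 to 400 (median 1.01), for a log2 ratio of -1.47. Both classes overlapped for either gene, and LS_39 had hardly any reads of the set, at 5.50 FPKM summed over the 10 members.

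For the other granins, Chgb was 207 FPKM in LS_14, 9.76 in LS_15, 0.804 in LS_9 and 0 in LS_39, so its log2 ratio of glutamate-marked to GABA-marked cells, 0.94, was 4.89 without LS_14. Scg3 showed the same dependence, with 172, 4.59, 3.92 and 1.31 FPKM in LS_14, LS_15, LS_9 and LS_39 and a log2 ratio of 0.80 that rose to 4.60 without LS_14. Scg5 (0.69), Scg2 (-0.52), Pam (-0.56) and Cpe (0.30) lay within 2-fold. The log2 ratio of Pcsk1 was -1.16, from 1 GABA-marked and 4 glutamate-marked cells with a read.

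The level of Fos, an immediate-early gene that rises after neuronal activity, was set against each member over the 30 glutamate-marked LS cells. Fos ranged from 0 to 1998 FPKM (median 141) and was read in 26 of these cells. Pcsk2 and Scg5 had the most negative rank correlations with Fos, at -0.61 each, followed by Chgb at -0.41, Chga at -0.34 and Cpe at -0.33. The others were closer to 0, with Pam at -0.16, Vgf at -0.14, Scg2 at -0.13, Scg3 at -0.11 and Pcsk1 at 0.014. Thus 5 of 10 members were at or below -0.3 and 0 at or above 0.3, beside 9.75% and 12.8% of the 6698 genes read in at least 50% of the cells, among which 9 members are counted. By rank from the most negative, Pcsk2 was at position 24 and Scg5 at 26.

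The cells with the least and the most Fos are given one by one. The 4 glutamate-marked LS cells without a read of Fos, LS_24, LS_23, LS_26 and LS_35, had 280, 170, 555 and 639 FPKM of Scg5. The 4 cells with the most Fos, LS_42, LS_13, LS_44 and LS_18, had 91.3, 0, 14.3 and 150 FPKM of Scg5, all below the former. Of these, LS_13 had reads of 1 of 7 neuron markers and a summed astrocyte level of 1249 FPKM, the highest of the kept LS cells, and the part of this in its values was not tested. For Pcsk2 the same cells had 102, 39.5, 99.4 and 17.3 FPKM without Fos and 26.8, 0, 11.6 and 30.9 FPKM with the most, which overlap through LS_35. Vgf, itself an activity-regulated gene, had 42.6, 55.6, 0 and 27 FPKM against 13.5, 20.8, 1.01 and 36.2 FPKM.

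These correlations are descriptions over cells that share the group, the protocol and unknown mice. Neuron markers moved with them, since 5 of the 7 also had a rank correlation with Fos at or below -0.3, and the summed neuron markers had -0.62. Given that sum, an adjustment added after the data were seen, the partial rank correlation was -0.36 for Pcsk2, -0.30 for Scg5 and -0.050 for Chgb, and the median over the members went from -0.24 to 0.11. Given the number of detected genes instead, which rose with Fos (rho 0.42), the median was -0.30. Leaving out any 1 cell left Pcsk2 between -0.70 and -0.58 and Scg5 between -0.66 and -0.57.

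**Figure D3:**
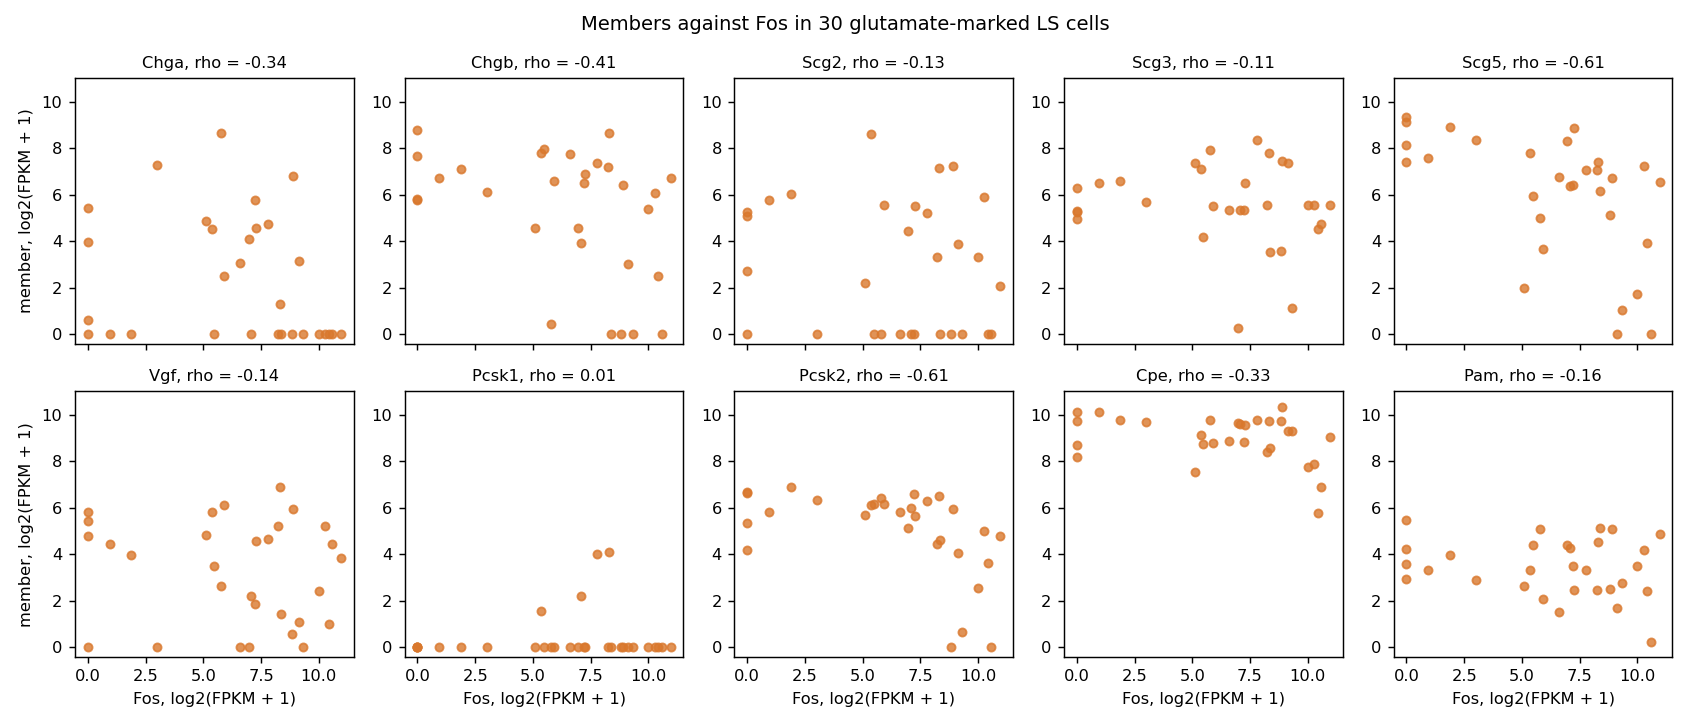
Level of each member against that of Fos in the 30 glutamate-marked LS cells, both as log2(FPKM + 1), where each point is 1 cell and rho is the Spearman rank correlation. Pcsk2 and Scg5 fall toward the cells with the most Fos (rho -0.61 each), whereas Scg2, Scg3, Vgf and Pam scatter with rho between -0.16 and -0.11.

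Members tended to vary together over the same 30 cells. All 45 pairs had a positive rank correlation, from 0.051 (Scg3 and Pam) to 0.74 (Scg2 and Vgf), with a median of 0.28. Over the 9 members read in at least 50% of the cells, which leaves out Pcsk1, 18 of 36 pairs (50%) reached 0.3, against 8.72% of all pairs of 6699 genes. After Scg2 and Vgf, the closest pairs were Chgb with Pcsk2 (0.65), Scg2 with Scg3 (0.57), Chgb with Scg5 (0.57) and Scg3 with Vgf (0.51). Each member also had a positive rank correlation with the summed neuron markers, from 0.39 for Chga and Pam to 0.71 for Scg5. Given that sum, 23 of 45 pairs were positive, with a median of 0.015, and 6 were at or above 0.3. Those 6 were Scg2 with Vgf (0.67), Chgb with Pcsk2 (0.43), Scg2 with Scg3 (0.42), Chga with Scg3 (0.39), Scg3 with Vgf (0.37) and Chga with Pcsk2 (0.34), while Scg3 and Scg5 were at -0.39. Scg5 with Pcsk2 went from 0.48 to 0.053 given that sum.

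**Figure D4:**
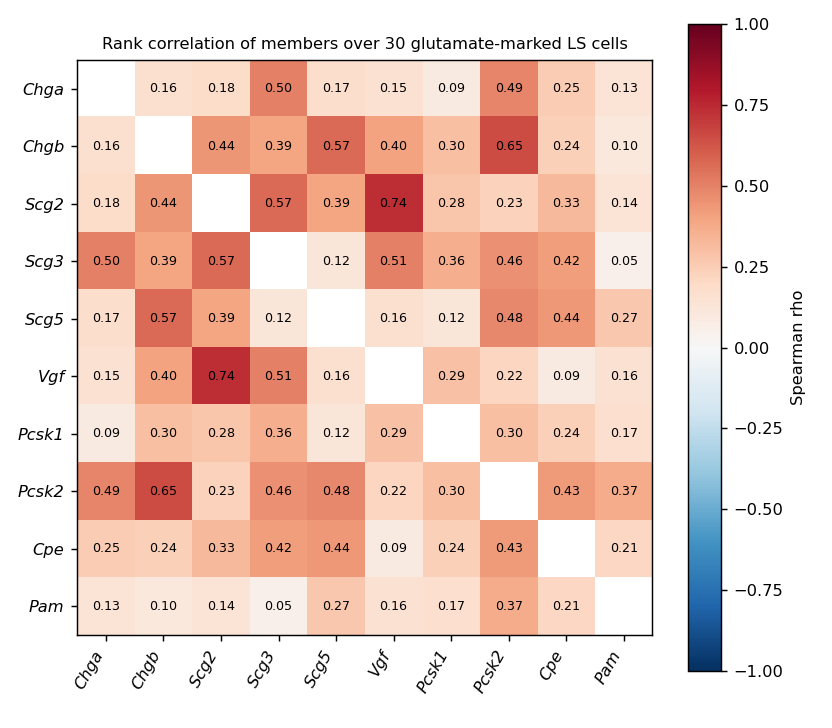
Spearman rank correlation of each pair of members over the 30 glutamate-marked LS cells, with the value in each square and the colour from -1 (blue) to 1 (red). All 45 pairs are positive, and Scg2 with Vgf (0.74) and Chgb with Pcsk2 (0.65) are the highest.

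By the Pearson correlation of log2(FPKM + 1) over these 30 cells, 6698 genes were ranked by their likeness to Chgb. Among the first 5 were Eno2, the neuronal enolase (rank 2, 0.82), and Aplp1, a relative of the amyloid precursor protein (rank 5, 0.81). Of the members, Pcsk2 stood at rank 37, Scg5 at 143, Scg2 at 253, Vgf at 470 and Scg3 at 629. Cpe at 1495, Pam at 2252 and Chga at 2843 were farther away.

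Other genes of the pathway were counted by the same 2-fold rule between LS and NS cells. Of 25 genes for dense-core vesicle formation, traffic and release, 12 were at least 2-fold higher in LS cells, 3 lower and 10 within 2-fold, beside 33.8% higher and 38.9% lower over all genes. Among the genes read in at least 50% of cells of the higher group and with at least 4 reads in the other, Ica1, an autoantigen of neuroendocrine vesicles, was highest at 19.7 ± 27.5 against 0.823 ± 2.85 FPKM (log2 4.58), and Pclo, the active-zone protein piccolo, was lowest at 6.18 ± 6.82 against 16.3 ± 35.8 (log2 -1.40). All 6 NS reads of Ica1 lay in NS_2, so its ratio rests on that cell. For Pclo, NS_13 held 57.7% of the NS sum. Of 16 other convertases and peptidases, 4 were higher, 4 lower and 8 within 2-fold, a share of higher genes below that over all genes, and under the same limits the highest was Rnpep, an aminopeptidase (log2 2.53), and the lowest Pcsk1n, the proSAAS inhibitor of Pcsk1 (log2 0.46). Pcsk1n was at 286 ± 235 FPKM over LS cells and 208 ± 288 FPKM over NS cells, above every member but Cpe in both groups.

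The cargo itself was also counted. Of 16 peptide precursors with a mean of at least 1 FPKM in either group, 9 were at least 2-fold higher in LS cells and 5 lower, beside the same 33.8% and 38.9% over all genes. Vip, Pdyn, Crh, Cort and Nppc, counted among the 9, had no NS read, so no ratio can be given for them. LS_15 held 95.5% of the LS sum of Vip. Cck was read in 31 of 35 LS and 1 of 12 NS cells, and its means were 1313 ± 1380 and 42.3 ± 146 FPKM (log2 4.96). Bdnf, a growth factor stored in the same vesicles, was at 26.8 ± 94.7 against 6.02 ± 16.3 FPKM (log2 2.16). Sst and Npy, named after their values were seen, went the other way, at 0.171 ± 1.01 against 778 ± 2641 FPKM and 9.15 ± 48.1 against 558 ± 1821 FPKM. Each rested on 1 NS cell, with 98.1% of the NS sum of Sst in NS_16 and 94.6% of that of Npy in NS_12. Of 8 immediate-early genes, 5 were at least 2-fold higher in LS cells (33.8% over all genes) and 3 within 2-fold, with Fos at log2 2.62 and Fosb at 0.72. The GABA-marked cell LS_39 held 39.3% of the LS sum of Fos. Mean Fos was 916 FPKM over LS cells, 377 over the glutamate-marked LS cells and 149 over NS cells.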

How the data were processed

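Single V1 neurons were measured by Smart-seq2 (46 LS and 17 NS cells). Per the labels and the study's methods, the authors trimmed reads with AfterQC, aligned them to GRCm38 with STAR 2.5.3a, counted them with featureCounts and deposited FPKM values of protein-coding genes with at least 1 FPKM, for all 63 cells. Although the table is named for counts, its deposited values are FPKM and were used as such. Strand use in counting is not given in the sources used here, so reads of a gene and of an antisense partner cannot be told apart. The members and lists were chosen with earlier results of these data known.

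Whole reads were worked back from the spacing of the FPKM values, with exon lengths of GENCODE M21 or, for 4 members, a length solved from the values. Of the values under 200 reads in resolved genes, 99.998% were within 0.01 of a whole number. A gene counted as resolved only where most such values were whole, so this share follows from that rule. For 1736 genes no length was found. The recovery and the ratios were tested on simulated data. Of the per-cell columns, 0 stayed unused. The 4 rows with a repeated name were left out.

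Cells were filtered as the study states: low cDNA by name, at least 1000 genes above 1 FPKM, mitochondrial share at most 25%, and product scores of astrocyte, oligodendrocyte and joint excitatory and inhibitory markers at 0. Doublets were treated by those scores only. This removed 16 cells. Groups were compared by the log2 ratio of mean FPKM, with SDs over cells, exact binomial intervals (95%) for shares and exact Poisson intervals for reads, and without tests. Correlations are Spearman unless named. All members were named. From each list the genes with the highest and lowest LS to NS ratio were named, among those read in at least 50% of cells of the higher group and with 4 or more reads in the other group, and beside them the 5 genes most like Chgb, of which 3 are not reported here. Alternatives were all 63 cells, cells with a receptor-gene level under 10% or at least 3000 genes, medians, log2 scales with a pseudocount of 1 or 0.1, pooled reads, cells of 1 marker class, markers by presence, other correlations, and each cell left out. Partial correlations given summed neuron markers were added after the data were seen. Python 3.11.15, numpy 2.4.6, pandas 2.3.3, scipy 1.17.1 and matplotlib 3.10.9 were used. Promoter windows came from RefSeq (GRCm38.p6).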

Additional observations from a re-analysis of the deposited data

Results flagged for a closer look

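Among the 5 NS cells that the filters removed, members were found above the highest kept NS cell. NS_17, removed because it had reads of both excitatory and inhibitory markers, had a read of all 10 members. Chgb was at 139 FPKM there (356 reads), against 3.57 in the highest kept NS cell, Scg2 was at 97.6 against 87.4, and Vgf was at 85.1 against 30.8 FPKM. NS_1, removed for its low cDNA concentration, had Pam at 45.5 FPKM (196 reads), against 12.4 in the highest kept NS cell. These cells entered no comparison between groups except that over all 63 cells.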

How the results depend on the processing

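No paired analysis was possible because cells were numbered separately in the LS and NS groups and the numbers tie no cell to another. The count of members at least 2-fold higher in LS cells, 7, was 6 to 9 under the alternatives tried and 7 to 9 with 1 cell left out. The count of members at least 2-fold higher in glutamate-marked than in GABA-marked LS cells, 1, was 3 with medians, 5 with means of log2(FPKM + 1) or log2(FPKM + 0.1), 2 with markers by presence of reads (25 against 4 cells), and 1 to 4 with 1 cell left out (4 without LS_14, 2 without LS_15). The median rank correlation with Fos, -0.24, lay between -0.30 and -0.17 under the other cell sets and measures and between -0.30 and -0.18 with 1 cell left out, and was 0.11 given the summed neuron markers. The median over pairs, 0.28, lay between 0.27 and 0.37 under the other cell sets and measures and between 0.21 and 0.31 with 1 cell left out, and was 0.015 given the summed neuron markers. For single members, the LS to NS log2 ratio changed sign for Pcsk1 in GABA-marked cells (0.26) and with 1 cell left out (-3.20 to 0.14, the latter without NS_15), for Pcsk2 in GABA-marked cells (-7.00), and for Scg3 (-0.33) and Cpe (-0.57), both within 2-fold, in cells of low receptor-gene level. Pcsk1 had no NS read in those cells or in glutamate-marked cells. The cause of these changes was not tested. At 200000 reads per library, the expected share of NS cells with a read of Chgb was 10.8%, against 25% before thinning in the same 8 cells. With medians, 7 members have a median of 0 in NS cells and 1 has 0 in both, so no ratio could be given. Those 7 were still counted as higher in the 9 of that setting. A count of 9 was also reached with means of log2(FPKM + 1), where every member had a ratio.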
